A study of Bos taurus with 8 samples.

Results

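The miR-29 family was represented in the liver small RNA of 8 dairy cows by 6 annotated genes, bta-mir-29a, bta-mir-29b-1, bta-mir-29b-2, bta-mir-29c, bta-mir-29d and bta-mir-29e. They were chosen by name, as every miRNA gene called miR-29 with a letter from a to e and any copy number, and make up 6 of the 1153 miRNA genes and of the 24616 genes in the count table. Reads were seen for all 6 in at least 1 library, as for 480 miRNA genes in all. Reads in every library were seen for 3 of the 6 (bta-mir-29a, bta-mir-29b-2 and bta-mir-29c), and a mean above 10 RPM (reads per 1000000 counted over all genes) for 2 of the 6 (bta-mir-29a and bta-mir-29c).

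Each library came from the liver of 1 Holstein Friesian cow, taken about 14 days after calving. The 4 cows in severe negative energy balance (SNEB; libraries 7S, 8S, 9S and 10S) were offered 25 kg of silage and 4 kg of concentrate a day and were milked 3 times a day. The 4 cows in mild negative energy balance (MNEB; libraries 2M, 3M, 4M and 5M) had free access to silage with 8 kg of concentrate a day and were milked 1 time a day. Diet and milking differed together, so their effects cannot be told apart. The labels name no allele or drug. Library 2M carries an M in its title and is MNEB in the tables of the study. Its treatment label reads SNEB, however, and the design text of the series counts more SNEB than MNEB samples. It was analysed as MNEB. The edgeR fits and the shares of all miRNA reads of bta-mir-29a and bta-mir-29c are also given with 2M in SNEB and without it. Most other results have 1 of these alternatives or neither. Group means and ranges have neither, so they rest on 2M being MNEB.

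MicroRNAs of the miR-29 family are short RNAs cut from hairpin precursors, which pair with messenger RNAs and lower their translation or stability. In human and mouse tissue they are best known for holding down collagens and other matrix genes, above all in the stellate cells of the liver, and also act on DNA methylation enzymes and on genes of insulin action and lipid synthesis. In mammals bta-mir-29a and bta-mir-29b-1 have counterparts that lie side by side in a shared transcript, as have bta-mir-29b-2 and bta-mir-29c. The mature miR-29b made by both of its gene copies is the same molecule.

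Gene counts per library were 21617227 to 28526343 in SNEB against 22809423 to 33963761 in MNEB. The hepatocyte miRNA bta-mir-122 took 67.7 to 76.5% of miRNA reads in SNEB libraries and 60.9 to 91.9% in MNEB libraries. Both extremes were MNEB libraries, 4M at 60.9% and 5M at 91.9%, and the scaling factor of edgeR (TMM) was 0.270 in 5M against 1.09 to 1.44 in the others. The hepatocyte markers were present in every library, with a summed level of 755765 to 821584 RPM in SNEB against 746924 to 938549 RPM in MNEB. The 6 stellate cell, smooth muscle and fibroblast markers, none of them at 0, summed to 1831 to 2902 RPM in SNEB against 2333 to 12900 RPM in MNEB, with 12900 RPM in 4M and 7501 RPM in 5M. The 5 leukocyte and Kupffer cell markers, all with reads, summed to 308 to 609 RPM in SNEB against 24.4 to 910 RPM in MNEB, highest in 4M and lowest in 5M. Each sum mostly follows the most abundant markers of its list, so it does not show how the other markers moved. Whether the markers of a list moved together was not tested. The part of these library differences in the miR-29 results was not tested. In whole tissue, fewer cells of a type and less RNA per cell cannot be told apart.

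In abundance the 6 genes spanned more than 4 orders of magnitude. bta-mir-29a (ENSBTAG00000029884) ranked 9 and bta-mir-29c (ENSBTAG00000029942) ranked 47 by mean RPM among the 480 miRNA genes with a read. The other genes were sparse: bta-mir-29b-2 (ENSBTAG00000029765) ranked 220, bta-mir-29d (ENSBTAG00000036430) 279, bta-mir-29e (ENSBTAG00000036365) 295 and bta-mir-29b-1 (ENSBTAG00000029980) 309. Summed over the libraries, bta-mir-29a had 923420 reads, bta-mir-29c 27831, bta-mir-29b-2 148, bta-mir-29d 37, bta-mir-29e 24 and bta-mir-29b-1 20. The curve of mean RPM against rank shows a pair of genes on the abundant arm and 4 below 1 RPM.

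**Figure D1:**
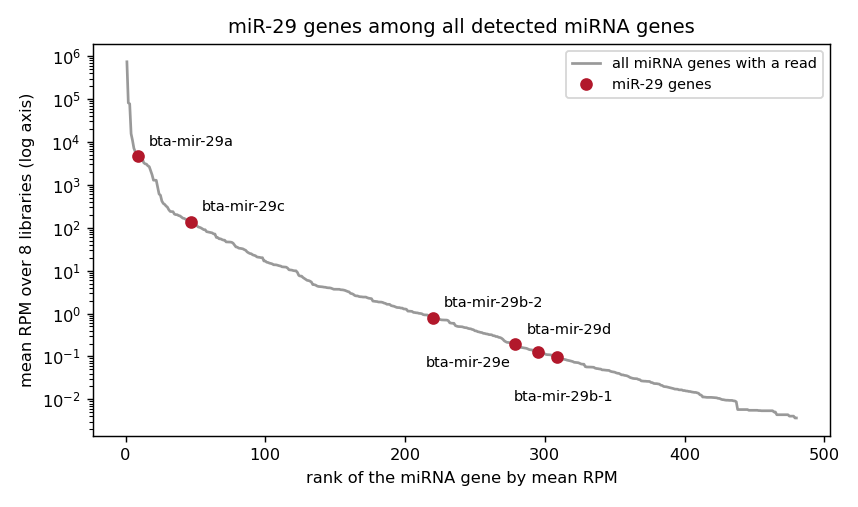
Mean RPM over the 8 libraries (log axis) against rank for the 480 miRNA genes with a read (grey line), with the 6 miR-29 genes in red. bta-mir-29a stands at rank 9 and bta-mir-29c at rank 47, and the other 4 lie between ranks 220 and 309.

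These counts describe single gene copies, not mature miRNAs. The authors kept only reads with 1 place of alignment, so a read of mature miR-29b that matches both bta-mir-29b-1 and bta-mir-29b-2 was not counted for either, and the low counts of these genes do not give the level of miR-29b in the liver. Counts cover the whole hairpin, so reads of both arms were added. Ligation and amplification favour some small RNAs over others, which limits any comparison of levels between genes. How far bta-mir-29d and bta-mir-29e share mature sequence with the other members was not analysed here.

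In the RefSeq annotation of a later bovine assembly (ARS-UCD2.0), 6 of 6 genes were matched by symbol and formed 3 pairs on 2 chromosomes, each pair within 10000 bp. bta-mir-29a and bta-mir-29b-1 both overlapped the long non-coding RNA LOC107131356. bta-mir-29b-2 and bta-mir-29c had the protein-coding gene CD46, a complement regulator, within 10000 bp. bta-mir-29d and bta-mir-29e both overlapped the protein-coding gene LOC518224. The strand setting used in counting could not be found in the study's methods or labels, so reads of an overlapping or antisense transcript may not be separable from those of the miRNA gene. Reads of CD46 were few: 44, 23, 15 and 13 in SNEB libraries 7S, 8S, 9S and 10S and 17, 11, 17 and 89 in MNEB libraries 2M, 3M, 4M and 5M.

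Within a pair the reads were far from equal in 2 of the 3 pairs. For the pair of bta-mir-29a and bta-mir-29b-1, the ratio of summed reads was 46171 (95% exact interval 29895 to 75588). For the pair of bta-mir-29c and bta-mir-29b-2 it was 188 (160 to 223). bta-mir-29d and bta-mir-29e stood at 1.54 (0.898 to 2.69), an interval that includes equal reads. Between the copies of miR-29b, the ratio of bta-mir-29b-2 to bta-mir-29b-1 was 7.4 (4.62 to 12.5). Reads of mature miR-29b that match both copies were not counted, so ratios with a miR-29b gene do not give the relative output of the genes. These intervals hold counting error alone and not the spread between cows. They take reads as independent, which PCR copies are not, so they may be too narrow even for counting error.

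bta-mir-29a, the miR-29 gene with the most counted reads, was measured at 5685, 5455, 5137 and 6179 RPM in SNEB libraries 7S, 8S, 9S and 10S, against 4849, 5163, 2781 and 1347 RPM in MNEB libraries 2M, 3M, 4M and 5M. The SNEB libraries lay close together, and the MNEB libraries fell into a higher and a lower pair, the lower being 4M and 5M. The groups overlapped by a single pair of libraries, SNEB 9S lying below MNEB 3M. The mean was 5614 ± 439 RPM in SNEB against 3535 ± 1801 RPM in MNEB (SD, n = 4 each), with a coefficient of variation of 7.82% in SNEB against 51.0% in MNEB. Leaving out 4M put the MNEB mean at 3786 RPM, and leaving out 5M put it at 4264 RPM.

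bta-mir-29c, which differs from miR-29a by little in its mature form, was measured at 192, 136, 116 and 202 RPM in SNEB libraries 7S, 8S, 9S and 10S, against 163, 195, 86.5 and 19.5 RPM in MNEB libraries 2M, 3M, 4M and 5M. Its MNEB libraries 2M and 3M lay inside the SNEB range, and 4M and 5M lay below every SNEB library. The mean was 162 ± 41.7 RPM in SNEB against 116 ± 78.9 RPM in MNEB (SD, n = 4 each).

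**Figure D2:**
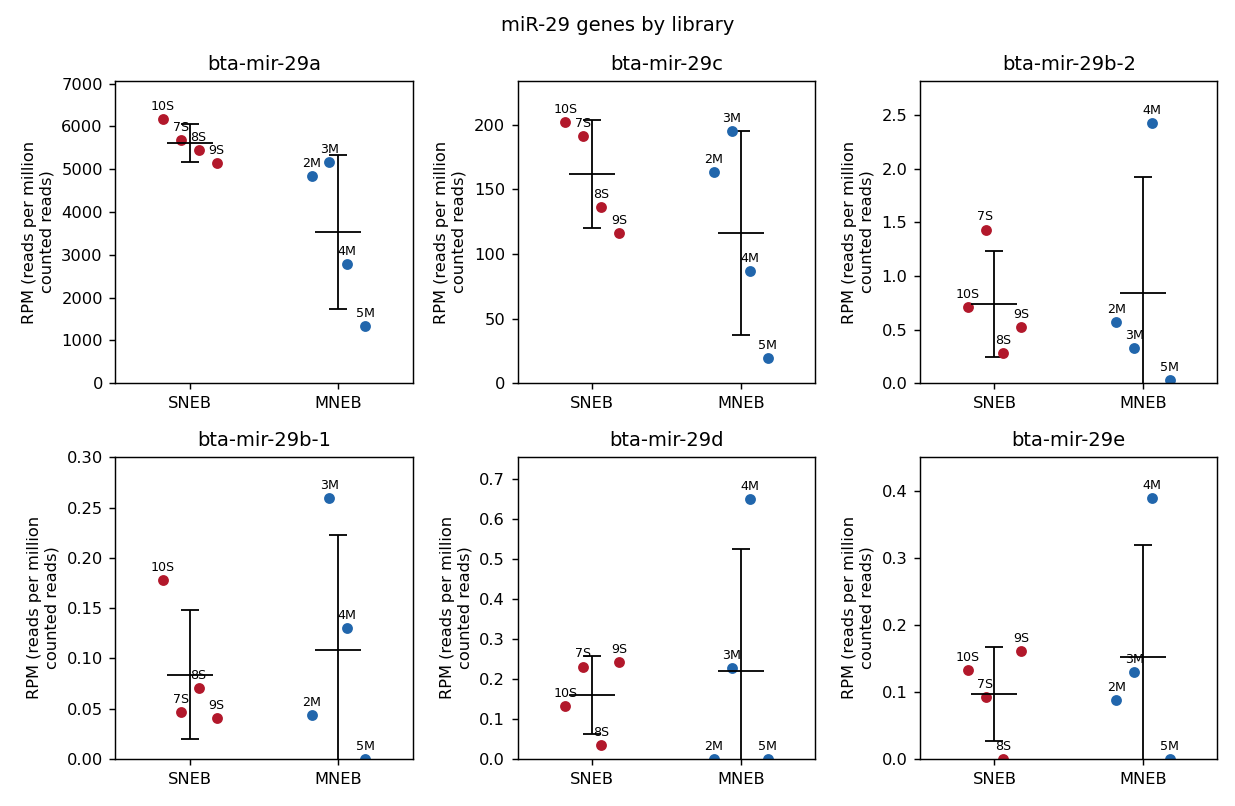
RPM of each miR-29 gene in each library (points, named), for SNEB (red, left) and MNEB (blue, right); the wide bar is the group mean and the whiskers are 1 SD (n = 4), cut at 0. bta-mir-29a runs from 5137 to 6179 RPM in SNEB and from 1347 to 5163 RPM in MNEB, and each gene has overlapping groups.

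The 4 sparse genes were close to the limit of detection, where 1 read is worth 0.0294 to 0.0463 RPM and a count of 0 allows up to 3 reads, or 0.0883 to 0.139 RPM, in a library. bta-mir-29b-2 had 31, 8, 13 and 16 reads in SNEB libraries 7S, 8S, 9S and 10S, against 13, 10, 56 and 1 in MNEB libraries 2M, 3M, 4M and 5M. Library 4M held 37.8% of its reads, and the MNEB range enclosed the SNEB range. The mean was 0.738 ± 0.496 RPM in SNEB against 0.839 ± 1.08 RPM in MNEB (SD, n = 4 each), and the MNEB mean was 0.308 RPM without 4M.

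bta-mir-29b-1 had 1, 2, 1 and 4 reads in SNEB libraries 7S, 8S, 9S and 10S, against 1, 8, 3 and 0 in MNEB libraries 2M, 3M, 4M and 5M. Its highest library was 3M, with 40% of its reads, and 5M had none. bta-mir-29d had 5, 1, 6 and 3 reads in SNEB libraries 7S, 8S, 9S and 10S, against 0, 7, 15 and 0 in MNEB libraries 2M, 3M, 4M and 5M. bta-mir-29e had 2, 0, 4 and 3 reads in the same SNEB libraries, against 2, 4, 9 and 0 in the same MNEB libraries. Both of these neighbours were highest in 4M, which held 40.5% of the reads of bta-mir-29d and 37.5% of those of bta-mir-29e. A high value in 4M was common among sparse miRNAs: of 188 miRNA genes at or under 10 RPM with at least 20 reads, 39.9% had their highest RPM in 4M. Library 5M had a single read over all 4 sparse genes.

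Summed over its 6 genes, the family reached 5777 ± 478 RPM in SNEB against 3652 ± 1880 RPM in MNEB (SD, n = 4 each). bta-mir-29a made 97.2 ± 0.527% of counted family reads in SNEB and 97.1 ± 0.987% in MNEB, and bta-mir-29c made 2.77 ± 0.521% in SNEB against 2.83 ± 0.972% in MNEB. Reads of mature miR-29b that match both of its gene copies are missing from the family total. These shares therefore do not give the make-up of mature miR-29 in the liver. The balance between the abundant genes can be read within a library, without any scaling between libraries. Reads of bta-mir-29c per 100 reads of bta-mir-29a were 3.37, 2.50, 2.27 and 3.27 in SNEB libraries 7S, 8S, 9S and 10S, against 3.37, 3.78, 3.11 and 1.45 in MNEB libraries 2M, 3M, 4M and 5M. Library 5M stood lowest, and the others of both groups lay over one range. The mean was 2.85 ± 0.551 in SNEB against 2.93 ± 1.02 in MNEB (SD, n = 4 each), and the mean log2 ratio differed by 0.03 (two-sided exact permutation test, p = 0.886). Without 5M the difference was -0.28 (exact permutation p = 0.286), and with 2M in SNEB it was 0.18 (exact permutation p = 0.643).

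**Figure D3:**
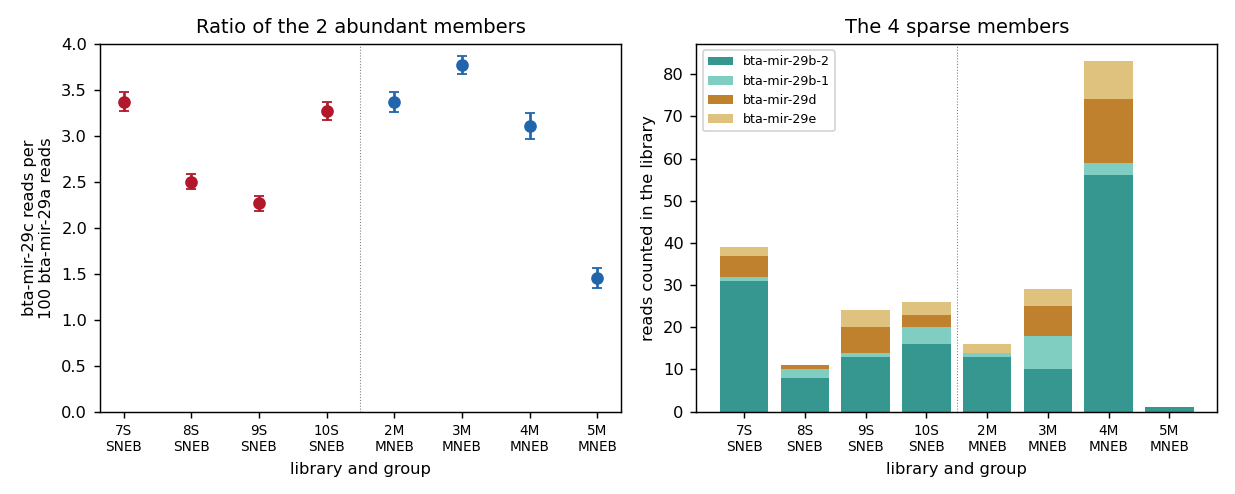
Left, bta-mir-29c reads per 100 bta-mir-29a reads by library, with 95% exact intervals (SNEB red, MNEB blue); right, reads of the 4 sparse miR-29 genes by library, stacked. The ratio is lowest in MNEB library 5M (1.45) and highest in MNEB library 3M (3.78), and the stacked bar of 4M, also MNEB, is the tallest.

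SNEB was compared with MNEB for each miRNA gene above 10 RPM by the quasi-likelihood test of edgeR with TMM scaling. Neither bta-mir-29a nor bta-mir-29c passed an adjusted p of 0.05, and the share of all 120 genes that passed was 0%. In that fit, 5 genes were higher and 11 lower in SNEB at an unadjusted p under 0.05, and neither miR-29 gene was among them. Over the same 120 genes DESeq2 called 1, the exact test of edgeR 0 and limma voom 0, with or without sample weights, and none of these calls was a miR-29 gene. For bta-mir-29a the fold, SNEB over MNEB, was 1.21, a log2 fold change of 0.27 (SE 0.388, edgeR adjusted p = 0.786), with a 95% interval for the fold of 0.679 to 2.15. For bta-mir-29c it was 1.23, a log2 fold change of 0.30 (SE 0.469, edgeR adjusted p = 0.787), with an interval of 0.614 to 2.47. Both intervals include no change, a doubling in SNEB and a decrease. By p-value the genes stood at ranks 75 and 81 of 120.

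The scaling bears on how these fold changes are read, since the median log2 fold change of the 120 genes was -0.20 under TMM, with 44 genes (36.7%) above 0 and 76 below. Relative to that median, bta-mir-29a stood at 0.47 and bta-mir-29c at 0.50. Without scaling, the median was 0.06, 65 genes (54.2%) were above 0 and 55 below, and bta-mir-29a stood at 0.67 with an edgeR adjusted p of 0.991. Under upper quartile scaling the median was 0.01, with 61 genes above 0 and 59 below. The log2 fold change was above 0 for both genes under all 20 alternatives run, between 0.19 and 0.67 for bta-mir-29a and between 0.16 and 0.74 for bta-mir-29c.

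Leaving out a library that stood apart did not lead to a call for either gene. Without 4M, the log2 fold change was 0.19 for bta-mir-29a and 0.20 for bta-mir-29c (edgeR adjusted p = 0.888 and 0.905). Without 5M it was 0.47 for bta-mir-29a and 0.18 for bta-mir-29c (edgeR adjusted p = 0.721 and 0.923). Without 2M it was 0.51 for bta-mir-29a and 0.61 for bta-mir-29c (edgeR adjusted p = 0.545 and 0.566), and with 2M in SNEB it was 0.28 and 0.45 (edgeR adjusted p = 0.582 and 0.565).

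**Figure D4:**
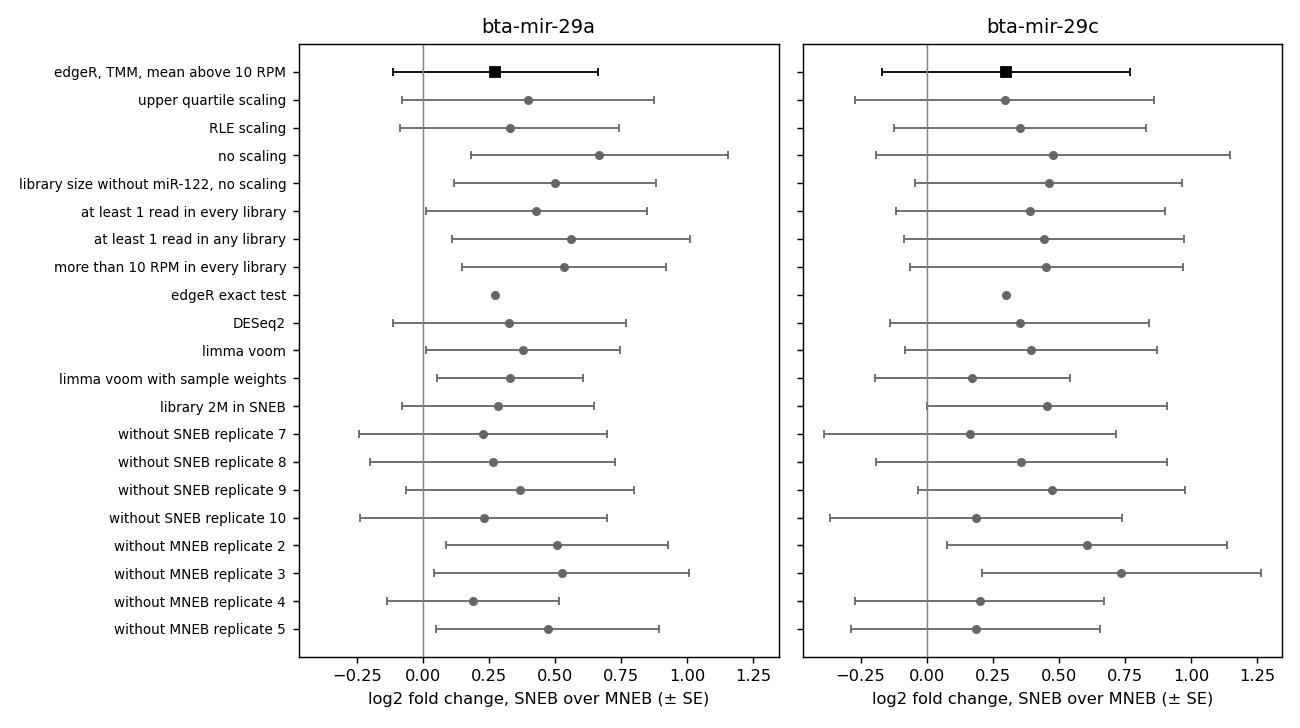
Log2 fold change, SNEB over MNEB, of bta-mir-29a (left) and bta-mir-29c (right) under each setting, with 1 SE to either side where the tool gives one; the square is the edgeR fit with TMM over 120 genes. Every point lies above 0, from 0.19 to 0.67 for bta-mir-29a and from 0.16 to 0.74 for bta-mir-29c, and none passed the adjusted threshold.

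The 4 sparse genes were tested together in a fit over the 480 miRNA genes with a read, of which 0.208% were called (bta-mir-1247, higher in SNEB) and no miR-29 gene. Their log2 fold changes were 0.26 for bta-mir-29b-2, -0.12 for bta-mir-29d, -0.40 for bta-mir-29e and -0.39 for bta-mir-29b-1, with standard errors of 0.734 to 0.972 and edgeR adjusted p of 0.977 to 0.993. In a fit over the 262 miRNA genes with a read in every library, bta-mir-29b-2 stood at 0.22 (SE 0.707, edgeR adjusted p = 0.994). At 20 to 148 reads over 8 libraries, differences of this size were not detectable.

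As a share of miRNA reads, which uses no scaling factor, bta-mir-29a took 0.567 ± 0.0441% in SNEB against 0.356 ± 0.181% in MNEB (SD, n = 4 each). With reads taken as independent, counting error alone moves a single library's share by no more than 0.00327 percentage points either way (95% Wilson interval). The log2 difference was 0.85 with a two-sided exact permutation p of 0.0571 and an adjusted p of 1 over 480 genes, and 0% of the 480 passed. With 4 libraries in each group the design allows no exact permutation p below 0.0286, and 5 genes reached an unadjusted p under 0.05, with no miR-29 gene among them. The groups were fully separate in RPM for 0 of 6 miR-29 genes, beside 1.04% of the 480. For bta-mir-29c the log2 difference in share was 0.87 (exact permutation p = 0.343). Without 5M it was 0.45 for bta-mir-29a (exact permutation p = 0.114) and 0.17 for bta-mir-29c (exact permutation p = 0.686). With 2M in SNEB it was 1.02 for bta-mir-29a (exact permutation p = 0.107) and 1.19 for bta-mir-29c (exact permutation p = 0.214). Without 2M it was 1.06 for bta-mir-29a (exact permutation p = 0.114) and 1.18 for bta-mir-29c (exact permutation p = 0.286). These settings allow fewer assignments, which raises the lowest p possible. Their p-values therefore cannot be set directly against those from 4 libraries in each group.

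With bta-mir-122 set aside, the place of the extreme libraries changed. bta-mir-29a then took 2.32, 2.35, 1.61 and 2.51% of the remaining miRNA reads in SNEB libraries 7S, 8S, 9S and 10S, against 2.04, 1.84, 0.720 and 1.68% in MNEB libraries 2M, 3M, 4M and 5M. Library 5M, lowest on RPM, came within the range of the other libraries, 4M became the lowest, and SNEB 9S lay below 3 MNEB libraries. The mean was 2.20 ± 0.403% in SNEB against 1.57 ± 0.586% in MNEB (SD, n = 4 each), a log2 difference of 0.57 (two-sided exact permutation p = 0.143). For bta-mir-29c it was 0.60 (exact permutation p = 0.257).

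**Figure D5:**
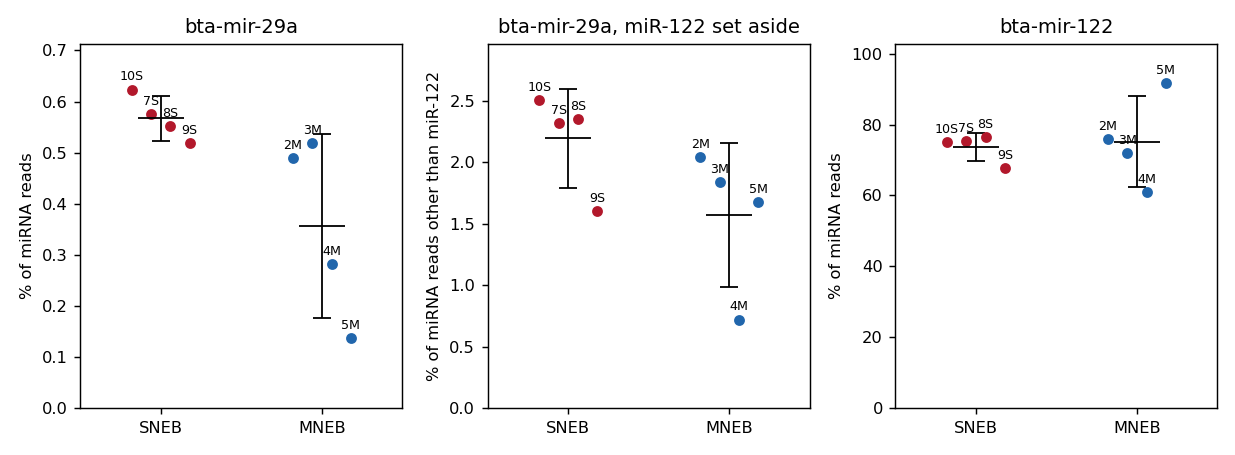
bta-mir-29a as a percent of miRNA reads (left) and of miRNA reads other than bta-mir-122 (middle), and bta-mir-122 as a percent of miRNA reads (right), by library for SNEB (red) and MNEB (blue), with group mean and 1 SD (n = 4). MNEB library 5M, with 91.9% of bta-mir-122, is lowest in the left panel and at 1.68% in the middle panel, where 4M is lowest at 0.720%.

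The miRNAs next to the miR-29 genes in mean abundance could not be set apart from them in rank. bta-mir-29a stood between bta-let-7f-2, of the let-7 family that holds back growth genes, at 6999 ± 2723 RPM in SNEB against 3095 ± 2225 RPM in MNEB, and bta-mir-423 at 5213 ± 937 RPM in SNEB against 3749 ± 1367 RPM in MNEB (SD, n = 4 each). It was above each of them in 4 of 8 libraries. bta-mir-29c stood between bta-mir-222 and bta-mir-345, and was above bta-mir-222 in 4 of 8 libraries and above bta-mir-345 in 6 of 8. The neighbours of the sparse genes were bta-mir-490 and bta-mir-132 for bta-mir-29b-2, bta-mir-2399 and bta-mir-33b for bta-mir-29d, bta-mir-137 and bta-mir-381 for bta-mir-29e, and bta-mir-339b and bta-mir-377 for bta-mir-29b-1, and each of the 4 was above such a neighbour in 2 to 6 of 8 libraries.

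Likeness of pattern was measured as the SD, over the 8 libraries, of the log2 ratio of a miRNA to the miR-29 gene, among 119 other miRNA genes above 10 RPM. A ratio that hardly varies gives a low SD, and all points share the library's depth. Closest to bta-mir-29a were bta-let-7c (SD 0.276), bta-mir-128-1 (0.362), bta-mir-92a-1 (0.376), bta-let-7g (0.400) and bta-mir-221 (0.412), against a median SD of 0.946 over the 119. bta-mir-29c came 6th, at 0.451. Closest to bta-mir-29c were bta-mir-92a-1 (SD 0.321), bta-mir-26b (0.342), bta-mir-342 (0.380), bta-mir-505 (0.410) and bta-mir-128-1 (0.427), with bta-mir-29a 7th and a median of 0.982. These orders depended on library 5M: without it, bta-mir-29a was the closest of all to bta-mir-29c, with an SD of 0.262, and bta-mir-29c was 5th for bta-mir-29a, while bta-let-7c fell to 7th.

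Fragments of messenger RNA in the libraries gave a limited view of genes that miR-29 is known to act on in human and mouse. Such fragments are breakdown products in a small RNA library and do not measure mRNA levels. Of 40 listed targets, 39 were in the table and 12 had a mean of at least 10 reads, and none of the 12 passed the edgeR test, in which 0.124% of 2415 protein-coding genes were called. None of the 12 reached an unadjusted p under 0.05 in this fit, and DESeq2 called none of them. The log2 fold change was above 0 for 9 and below 0 for 3, with a median of 0.40. Over all 2415 it was above 0 for 1193 and below 0 for 1222, with a median of -0.01. The sign of some of the 12 changed when a library was left out. Reads of protein-coding genes totalled 116725 to 195589 in SNEB libraries and 58887 to 280802 in MNEB libraries, highest in 5M and lowest in 3M.

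Among matrix targets, 5 of 19 were tested, with a log2 fold change above 0 for 4 and below 0 for 1. The 2 most abundant are described. COL3A1, a fibrillar collagen, had 38, 53, 31 and 36 reads in SNEB libraries 7S, 8S, 9S and 10S, against 30, 20, 32 and 29 in MNEB libraries 2M, 3M, 4M and 5M, a log2 fold change of 0.23 (SE 0.391, edgeR adjusted p = 0.840). SPARC, a collagen-binding matrix protein, had 12, 12, 7 and 9 reads in the same SNEB libraries, against 17, 1, 12 and 42 in the same MNEB libraries, a log2 fold change of -0.75 (SE 0.533, edgeR adjusted p = 0.556). Per 100000 protein-coding reads of the library, COL3A1 had 21.3 to 30.8 reads in SNEB and 10.3 to 34.9 in MNEB. On that scale 2M and 3M lay above every SNEB library, and 4M and 5M below. SPARC had 4.81 to 8.53 reads in SNEB and 1.70 to 19.8 in MNEB on the same scale, highest in 2M and lowest in 3M. Without 5M the log2 fold change was -0.01 for COL3A1 and -0.39 for SPARC, and with 2M in SNEB it was 0.54 for COL3A1 and -0.06 for SPARC. SPARC stood at -1.02 without 3M (edgeR unadjusted p = 0.0483, adjusted p = 0.390). It stood at -1.02 without 4M as well (edgeR unadjusted p = 0.0671, adjusted p = 0.569). Neither gene passed the adjusted threshold in any of these settings. The collagens COL1A1 and COL1A2 had means of 6 and 5.88 reads and were not tested.

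Among metabolic targets, 5 of 9 were tested. INSIG1, which holds back sterol synthesis, had 103, 110, 70 and 219 reads in SNEB libraries 7S, 8S, 9S and 10S, against 49, 90, 90 and 59 in MNEB libraries 2M, 3M, 4M and 5M, a log2 fold change of 0.42 (SE 0.553, edgeR adjusted p = 0.793). Per 100000 protein-coding reads of the library, INSIG1 had 48.1 to 188 reads in SNEB, highest in 10S, and 21.0 to 153 in MNEB, highest in 3M. The groups overlapped. Its log2 fold change was -0.15 without 10S, 1.15 without 3M (edgeR adjusted p = 0.361) and 0.22 with 2M in SNEB. PIK3R1, a regulatory subunit of the kinase downstream of the insulin receptor, had 18, 18, 14 and 17 reads in the same SNEB libraries, against 6, 7, 28 and 29 in the same MNEB libraries, a log2 fold change of 0.04 (SE 0.362, edgeR adjusted p = 0.974). Per 100000 protein-coding reads of the library it had 9.20 to 14.6 reads in SNEB and 6.98 to 13.1 in MNEB, so that 2M alone lay outside the SNEB range. The log2 fold change of PIK3R1 was -0.11 without 2M, -0.05 without 10S and -0.22 with 2M in SNEB.

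Of 6 targets in survival and growth, 2 were tested. MCL1, which protects cells from apoptosis, had 62, 46, 30 and 28 reads in SNEB libraries 7S, 8S, 9S and 10S, against 13, 19, 67 and 14 in MNEB libraries 2M, 3M, 4M and 5M, a log2 fold change of 0.44 (SE 0.481, edgeR adjusted p = 0.734). Per 100000 protein-coding reads of the library it had 20.6 to 44.1 reads in SNEB and 4.99 to 32.3 in MNEB, where 3M and 4M lay inside the SNEB range. The log2 fold change of MCL1 was 0.83 without 4M, 0.08 without 5M and 0.17 with 2M in SNEB. HBP1, a transcriptional repressor of cell cycle genes, had a log2 fold change of 0.73 (SE 0.465, edgeR adjusted p = 0.513). None of the 6 genes of DNA methylation was tested, the most abundant being TET2 and TET3, enzymes that oxidise methylated cytosine, with means of 6.75 and 4.25 reads.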

How the data were processed

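The deposited values are raw counts per Ensembl gene (build UMD3.1 per the labels), made by the authors from 1 library per cow: reads were checked with FastQC 0.10.0, trimmed with cutadapt 1.1, aligned with Novoalign 2.07.11 and, where they aligned to 1 place, counted with HTSeq 0.5.3p3. The 3 entries that name no gene are totals and were left out. Library 8S was read from the column headed 6S, since its label gives the letter of that column.

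RPM used the total over all genes, and shares the total over miRNA genes. SNEB was compared with MNEB by the quasi-likelihood test of edgeR 4.0.16 (R 4.3.3) with TMM, tested on simulated data. Benjamini-Hochberg adjustment was over all genes fitted. Exact permutation tests (two-sided) were run in numpy 2.4.6, with the main result for bta-mir-29a checked against scipy 1.17.1. They had 70 assignments in the main setting and fewer where the group sizes changed. Shares had a pseudocount of 0.5 RPM, which understates changes of sparse genes. Protein-coding genes needed a mean of 10 reads. Alternatives were other scalings and filters, DESeq2 1.42.0, limma 3.58.1, another denominator, linear values, omission of each library, and 2M in SNEB. The 12 pairs within groups all differed by more than sampling noise. Members, target and marker lists and tests were chosen with earlier results of these data known. Named genes were the members, the 5 most alike, those adjacent in abundance or position, bta-mir-122 and the 2 most abundant targets of each list. COL1A1, COL1A2, CD46 and bta-mir-1247 were named after their values were seen.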

Additional observations from a re-analysis of the deposited data

How the results depend on the processing

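The log2 fold changes of bta-mir-29a and bta-mir-29c kept their sign and stayed above the adjusted threshold under all 20 alternatives, with edgeR, DESeq2 or limma adjusted p of 0.545 to 0.991 for bta-mir-29a and 0.565 to 0.991 for bta-mir-29c. Leaving out each library gave 0.19 to 0.52 for bta-mir-29a and 0.16 to 0.74 for bta-mir-29c. The count of miRNA genes called, 0 of 120, became 1 with every gene with a read (480 genes), 1 with DESeq2 and 1 with 2M in SNEB, and was 0 with any library left out. The log2 difference in the ratio of bta-mir-29c to bta-mir-29a turned to -0.0738 reads per 100 on the linear scale and ranged from -0.28 to 0.18 with a library left out. Differences in share of the sparse genes had no stable sign. bta-mir-29b-1 was at 0.012 and bta-mir-29d at 0.20 with bta-mir-122 set aside, and bta-mir-29b-2 was at -1.02e-05 percentage points on the linear scale. With a library left out they ranged from -0.136 to 0.0658 for bta-mir-29b-1, -0.23 to 0.60 for bta-mir-29b-2, -0.19 to 0.21 for bta-mir-29d and -0.220 to 0.0601 for bta-mir-29e. The cause was not tested.

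Protein-coding genes called, 3 of 2415, were 6 under upper quartile scaling, 73 with DESeq2 and 8 with 2M in SNEB. They ranged from 2 to 121 with a library left out, 121 without 5M and 7 without 2M. No listed target was called in any of the 13 alternatives. In the alternative that needed a mean of at least 50 reads, INSIG1 alone of the listed targets was tested, so the others could not be called there. No paired analysis was possible because the groups share no replicate numbers. With 4 cows a group, no exact permutation p can fall below 0.0286, and none passes adjustment over 480 genes. Counts of 20 to 148 reads limit the sparse genes.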
